A study of Mus musculus and Homo sapiens with 34 samples.

Results

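The 10 genes described here encode the regulators of the first step of G1. They are the D cyclins Ccnd1, Ccnd2 and Ccnd3, their kinase partners Cdk4 and Cdk6, the inhibitors of the CIP/KIP family Cdkn1a (p21), Cdkn1b (p27) and Cdkn1c (p57), and the INK4 inhibitors Cdkn2b (p15) and Cdkn2c (p18). They were taken by gene name from each of the 7 deposited count tables, which listed from 16553 to 26245 genes. Of the 10, all were listed in the 3311 table and in both 3154 tables, 9 in the 1027B table, 9 in the H358 and H1651 trametinib tables and 8 in the H1651 doxycycline table. Cdkn1c in 1027B, CCND2 in the human lines and CDKN2B in the doxycycline experiment were not analysed here. Every listed member passed the filter on low counts in its table, except CDKN2B in the H1651 trametinib table.

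The study profiled bulk poly(A) RNA of cultured lung adenocarcinoma cells in 17 groups of 2 libraries, to ask how the lineage factor HNF4A and oncogenic signalling shape tumour identity. Mouse organoids named 3154 carried p53frt, Rosa-FSF-CreERT2 and Hnf4aflox. CreERT2 is a Cre recombinase that works only when 4-hydroxytamoxifen (4OHT) is given, so 4OHT deletes Hnf4a and ethanol is its control. In the first 3154 experiment, organoids had 4OHT (labelled 2 mM) or ethanol for 2 days and were collected 2 weeks later. In the second, labelled 48 hours, organoids had 4OHT or ethanol, each combined with vehicle or with 3 nM of the small molecule MRTX1133. Its 4OHT dose, the length of exposure and the time from 4OHT to collection are not given in the sources used here. The 48-hour deletion thus names the experiment and not the time since 4OHT. The 1027B organoids and the 3311 cell line carried p53frt and Rosa-FSF-CreERT2 together with Foxa1flox and Foxa2flox, and no label names a treatment that deletes those 2 genes. Trametinib, which inhibits MEK, was given for 48 hours at 10 nM to 1027B, at 50 nM to 3311 and at 20 nM to the human lung adenocarcinoma lines H358 and H1651, beside vehicle groups. Another 1027B group had MRTX1133 at 20 nM, also for 48 hours. In a separate experiment, H1651 cells with a lentiviral, doxycycline-inducible HNF4A construct were kept for 7 days with 1 µg/mL doxycycline or without it; the genotype label stands on the doxycycline libraries only. Each culture is 1 line, and the labels do not say that the replicates were separate cultures, so p-values measure only the spread between these libraries, which may be technical.

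D cyclins are made in response to growth signals and bind CDK4 or CDK6. The active complex phosphorylates the retinoblastoma protein RB, which releases E2F transcription factors and lets genes for DNA synthesis be expressed. INK4 proteins bind CDK4 and CDK6 and block them. CIP/KIP proteins block CDK2 complexes and can also help assemble cyclin D with CDK4. Ccnd1 transcription is a known output of the RAF, MEK and ERK cascade, Cdkn1a is a known target of p53, and Cdkn2b of TGF-beta signalling.

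Library totals ran from 19692500 to 45284300 counts. Levels are TMM-scaled CPM (read counts relative to the library's total), with libraries in the order of replicate 1 and replicate 2, and each table was scaled separately. Between replicates, the counts differed by more than counting noise in every group (chi-square per degree of freedom 5.90 to 87.9), so no pair looked like 1 library deposited again. Genes whose adjusted p in edgeR's quasi-likelihood test lay under 0.05 are said to be called. The 5 lung epithelial markers summed to 2678 to 8844 CPM, fibroblast markers to 0.115 to 343, immune markers to 1.40 to 44.7 and endothelial markers to 1.01 to 28.1, and every epithelial marker was detected in each table. In H1651 EPCAM was low, at 0.992 to 3.81 CPM in the doxycycline experiment and 1.24 to 2.50 in the trametinib experiment. The fibroblast marker LUM was at 95.7 to 177 and 90.5 to 161 there. The medians over all genes tested lay between -0.03 and 0.02 on the log2 scale in the 14 comparisons. In bulk RNA, fewer cells of a type and less RNA per cell cannot be told apart.

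RefSeq promoter windows on GRCm38.p6 were matched by symbol for 7 of the 10 mouse genes. Those of Cdkn1a, Cdkn1b, Cdkn2b and Cdkn2c, inhibitors that were each called in at least 1 mouse comparison, are shown as the 250 bases before the start site, with the motif matches they hold. Capitals mark a motif match. Cdkn1a (chr17:29090729-29090978 and chr17:29093519-29093768, plus strand) has an upstream and a downstream start. The upstream window holds a match to the p53 response element, counted with 1 mismatch allowed, beginning 51 bases before the start. The downstream window holds GC boxes (GGGCGG) beginning 104 and 46 bases before the start. Cdkn1b (chr6:134920151-134920400, plus strand) holds a GC box 61 bases before its start, and Cdkn2b (chr4:89311033-89311282, minus strand) a cyclic-AMP response element (TGACGTCA) 46 bases before its start. The upstream start of Cdkn2c (chr4:109666757-109667006, minus strand) holds GC boxes 95, 51 and 40 bases and an E2F motif, on the other strand, 25 bases before the start. The window of its downstream start holds no match and is not shown.
Cdkn1a upstream start: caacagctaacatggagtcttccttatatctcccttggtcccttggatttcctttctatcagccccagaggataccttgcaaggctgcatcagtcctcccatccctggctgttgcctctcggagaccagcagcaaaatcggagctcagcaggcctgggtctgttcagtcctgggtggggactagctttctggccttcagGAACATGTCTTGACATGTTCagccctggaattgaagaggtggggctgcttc
Cdkn1a downstream start: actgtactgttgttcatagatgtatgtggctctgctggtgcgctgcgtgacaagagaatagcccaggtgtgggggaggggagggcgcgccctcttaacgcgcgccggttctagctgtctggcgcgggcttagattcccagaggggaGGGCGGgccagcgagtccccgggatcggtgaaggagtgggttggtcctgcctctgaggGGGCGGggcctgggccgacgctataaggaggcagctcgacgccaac
Cdkn1b: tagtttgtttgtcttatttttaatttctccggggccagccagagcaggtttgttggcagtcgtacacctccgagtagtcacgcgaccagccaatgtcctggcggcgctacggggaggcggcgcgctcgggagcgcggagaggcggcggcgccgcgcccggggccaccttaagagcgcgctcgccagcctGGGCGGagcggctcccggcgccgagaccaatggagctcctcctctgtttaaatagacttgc
Cdkn2b: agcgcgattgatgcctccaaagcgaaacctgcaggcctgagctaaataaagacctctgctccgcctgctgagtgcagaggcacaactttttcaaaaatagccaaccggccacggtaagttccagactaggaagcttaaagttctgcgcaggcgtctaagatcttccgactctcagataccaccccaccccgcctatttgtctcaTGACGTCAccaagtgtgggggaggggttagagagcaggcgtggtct
Cdkn2c upstream start: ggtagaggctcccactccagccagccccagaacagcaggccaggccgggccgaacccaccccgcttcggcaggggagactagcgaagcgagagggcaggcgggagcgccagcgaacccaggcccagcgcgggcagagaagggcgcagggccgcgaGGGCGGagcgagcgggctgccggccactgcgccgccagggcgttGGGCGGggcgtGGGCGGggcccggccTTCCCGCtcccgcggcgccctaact
Both strands were searched, over the same 250 bases of all 32851 RefSeq promoters. The p53 element was found in 0.0761% of them, the GC box in 32.7% and the cyclic-AMP element in 1.55%. Other motifs searched were ETS (CCGGAAGT, 2.88%), AP-1 (TGANTCA, 6.75%), the core promoter box TATAAA (12.4%), E2F (GCGGGAA, 3.82%), FOXO (TGTTTAC, 3.17%), an HNF4 site (CAAAGTCCA, 0.384%) and the DR1 direct repeat (0.0335%). The letters of the HNF4 site and of DR1, which nuclear receptors such as HNF4A can bind, were in none of the 10 windows of these 7 genes, and no 2 matches overlapped. A match is a description of letters, not a measured site.

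In untreated mouse cultures, the 10 genes covered a wide range of levels, compared per kilobase of exon in the GENCODE M21 annotation. Cdkn1a was at 122 ± 47.0 CPM per kb (mean ± SD, n = 2) in 1027B, 125 ± 33.5 and 165 ± 9.78 in the ethanol groups of the 2-week and 48-hour 3154 experiments, and 57.2 ± 33.8 in 3311. In 3311 Ccnd2, Cdkn1b, Cdk4 and Cdkn2b had higher means than Cdkn1a, while in 1027B no member did and in 3154 only Cdkn1c at 2 weeks did. Cdk4 was even across cultures, from 79.7 to 97.6 CPM per kb in mean, and Cdk6 lay lower, from 3.73 to 12.8. Among the D cyclins, Ccnd1 was the highest in the organoids, at 97.5 ± 1.53 in 1027B and 59.2 ± 19.6 and 56.1 ± 0.310 in 3154. The 3311 line differed in its D cyclins, with Ccnd2 at 109 ± 7.05 CPM per kb above Ccnd1 at 25.0 ± 2.58 and Ccnd3 at 7.41 ± 1.91. In 1027B, Ccnd2 stood at 1.19 ± 0.259. The CIP/KIP gene Cdkn1c was at 254 ± 60.3 and 95.5 ± 13.7 in the 2 ethanol groups of 3154 and at 0.292 ± 0.00101 in 3311, where its counts were 6 to 16 per library. Cdkn1b was at 109 ± 23.4 in 3311 and between 37.0 and 45.8 in mean in the organoids. Of the INK4 genes, Cdkn2b had means from 42.6 to 91.5 CPM per kb and Cdkn2c from 1.76 to 6.65. The tables were normalised separately and the cultures stand in different tables, so no test was made between them. In mean level, the order of the D cyclins was thus Ccnd1, Ccnd3, Ccnd2 in every organoid group and Ccnd2, Ccnd1, Ccnd3 in 3311, and neighbours in the order lay further apart than the sum of their SDs.

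**Figure D1:**
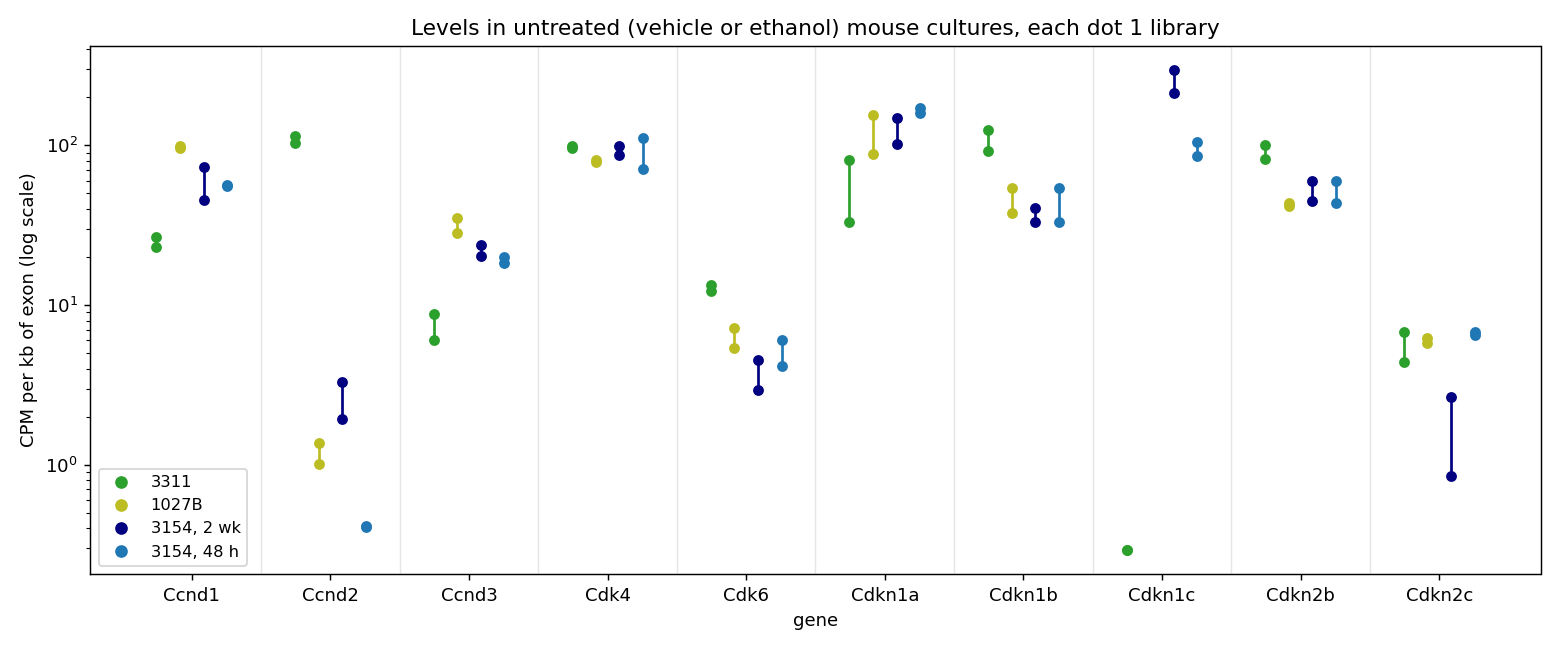
Levels in untreated mouse cultures in CPM per kilobase of exon (log axis), 1 dot per library, for the ethanol groups of both 3154 experiments and the vehicle groups of 1027B and 3311. Ccnd2 is the gene on which 3311 (109 ± 7.05 CPM per kb) and 1027B (1.19 ± 0.259) stand furthest apart among the D cyclins.

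Genes on the opposite strand share exon bases with several of these genes in that annotation. The shared part was 30.7% of the exon bases of Cdkn1c (chromosome 7, 143458339 to 143461050, minus strand, GRCm38), 23.4% of Ccnd1 (chromosome 7, 144929931 to 144939925, minus strand) and 19.7% of Cdk4 (chromosome 10, 127063534 to 127067920, plus strand, with Tspan31). It was 7.68% for Cdkn1a (chromosome 17, 29090976 to 29100727, plus strand) and 4.11% for Ccnd3 (chromosome 17, 47505051 to 47599691, plus strand). Cdkn1b (chromosome 6, 134920401 to 134925513, plus strand), Cdkn2b (chromosome 4, 89306299 to 89311039, minus strand) and Cdkn2c (chromosome 4, 109660876 to 109667189, minus strand) shared none. The libraries were strand-specific, but whether counting used the strand is not given in the sources used here, so reads of such partners cannot be told apart.

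In the 48-hour experiment, 3154 organoids given 4OHT to delete Hnf4a had lower levels of the 3 CIP/KIP inhibitors and of Ccnd3 and a higher level of Ccnd1 than those given ethanol. Cdkn1a fell 5.58-fold, Cdkn1c 2.92-fold, Cdkn1b 2.43-fold and Ccnd3 2.42-fold in vehicle, and Ccnd1 rose 2.49-fold. That made 5 of 10 genes called, 1 higher and 4 lower, where 15.3% of all genes tested were called higher and 15.7% lower. In MRTX1133, 6 of 10 were called, 1 higher and 5 lower, where 13.2% of all genes were called higher and 14.5% lower. The median log2 change of the 10 genes was -0.31 in vehicle and -0.56 in MRTX1133, against 0.01 and -0.01 over all genes tested. The 5 genes called in vehicle were all among the 6 called in MRTX1133, and these 2 comparisons share no library.

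Hnf4a itself was checked first. Its level was 221 and 230.0 CPM in ethanol with vehicle and 49.4 and 50.3 in 4OHT with vehicle. With MRTX1133 it was 179.7 and 184 in ethanol and 25.3 and 29.8 in 4OHT. At 2 weeks it was 315 and 427 in ethanol and 53.4 and 67.9 in 4OHT. The counts cover the whole gene, not only the exons flanked by loxP sites. A group that had 4OHT without an Hnf4aflox allele was not analysed here, so effects of 4OHT or of Cre itself and of the lost Hnf4a cannot be told apart.

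Ccnd1, the D cyclin that reads out growth factor signalling, was at 265 and 263 CPM in ethanol with vehicle and at 628 and 685 in 4OHT with vehicle. With MRTX1133 it was at 329 and 371 in ethanol and 472 and 615 in 4OHT. All 4 libraries with 4OHT lay above all 4 with ethanol. The log2 change was 1.31 ± 0.15 (SE; adjusted p = 0.000990) in vehicle and 0.63 ± 0.15 (adjusted p = 0.0175) in MRTX1133. The second call was lost without replicate 2 of 4OHT with MRTX1133 (0.43, adjusted p = 0.129) and without replicate 1 of ethanol with MRTX1133 (0.0928).

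Ccnd3, a D cyclin often expressed in differentiating cells, moved the other way. It was at 175 and 161 CPM in ethanol and 71.2 and 67.6 in 4OHT with vehicle, and with MRTX1133 at 148 and 124 in ethanol and 58.0 and 58.9 in 4OHT, with no overlap in either pair of groups. The changes were -1.27 ± 0.13 (adjusted p = 0.000643) and -1.22 ± 0.13 (0.000721). Ccnd2, the third D cyclin and the lowest in these organoids, was not called, at 0.14 and -0.33. Neither kinase was called: Cdk4 was at -0.29 in vehicle and -0.44 in MRTX1133, and Cdk6 at 0.33 and 0.26.

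Cdkn1a gave the largest change among the 10 genes. Its level was 612 and 563 CPM in ethanol with vehicle, 111 and 99.5 in 4OHT with vehicle, 495 and 363 in ethanol with MRTX1133 and 61.4 and 60.5 in 4OHT with MRTX1133. Every library with 4OHT was below every library with ethanol. The log2 change was -2.48 ± 0.17 in vehicle (adjusted p = 0.000147) and -2.81 ± 0.17 in MRTX1133 (0.000129). Cdkn1c, an imprinted inhibitor of cyclin E and A kinases, was at 175 and 214 in ethanol and 67.1 and 66.3 in 4OHT with vehicle, a change of -1.55 ± 0.18 (adjusted p = 0.000917). With MRTX1133 it was at 232 and 312 in ethanol and 112 and 125 in 4OHT, a change of -1.20 ± 0.17 (0.00230). In both settings its groups stood apart.

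Cdkn1b, an inhibitor whose protein is removed by SKP2-dependent turnover as cells enter S phase, was at 245 and 151 CPM in ethanol and 84.0 and 78.6 in 4OHT with vehicle, and with MRTX1133 at 191 and 142 in ethanol and 64.4 and 71.0 in 4OHT. The ethanol replicates were uneven, but each stayed above its 4OHT group. The changes were -1.28 ± 0.24 (adjusted p = 0.00606) and -1.30 ± 0.24 (0.00620). They missed the threshold without replicate 2 of 4OHT with vehicle (adjusted p = 0.0584) and without replicate 1 of 4OHT with MRTX1133 (0.0583), respectively.

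Of the INK4 genes, Cdkn2c was at 18.2 and 17.5 CPM in ethanol and 18.1 and 16.6 in 4OHT with vehicle, where the groups overlapped and no change was called (-0.04 ± 0.14). With MRTX1133 it was at 20.5 and 17.4 in ethanol and 11.9 and 11.6 in 4OHT, a change of -0.68 ± 0.14 (adjusted p = 0.0102). That call was lost without replicate 1 of 4OHT with MRTX1133 (0.0692), without replicate 2 of 4OHT with MRTX1133 (0.0831) and without replicate 1 of ethanol with MRTX1133 (0.0636). Cdkn2b, at 60.7 and 82.7 CPM in ethanol and 58.9 and 54.5 in 4OHT with vehicle, was not called in either setting (-0.34 and -0.03). Without replicate 1 of ethanol with vehicle, 8 of the 10 genes were called in vehicle in place of 5, with Cdk4 (-0.58, adjusted p = 0.0302) and Cdkn2b (-0.55, 0.0251) lower and Cdk6 (0.62, 0.0324) higher.

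At 2 weeks, 1 of 10 genes was called, Cdkn1c, where 4.03% of all genes were called higher and 5.78% lower, and the median change of the 10 was -0.01, against 0.02 over all genes. Cdkn1c was at 431 and 605 CPM in ethanol and 136 and 93.3 in 4OHT, 4.52-fold lower (-2.18 ± 0.25, adjusted p = 0.0124). Cdkn1a was at 361 and 529 in ethanol and 69.5 and 175 in 4OHT, without overlap, and missed the threshold at -1.86 ± 0.45 (adjusted p = 0.0582). Ccnd1 was at 344 and 214 in ethanol and 565 and 503 in 4OHT, also without overlap, at 0.94 ± 0.24 (adjusted p = 0.0658). This table had the widest spread between replicates of the 7, with a biological coefficient of variation of 0.193. Cdkn1a was called by DESeq2 (adjusted p = 4.09e-05) and with no count filter (0.0379), and without replicate 1 of ethanol (0.00466), replicate 2 of ethanol (0.0152) or replicate 2 of 4OHT (0.0187). Ccnd1 was called by DESeq2 too (adjusted p = 0.00285). Without replicate 1 of ethanol, Ccnd1 (1.31, 0.00190) and Cdkn2c (2.22, 0.00605) were called too. Ccnd3 stood at -0.46 ± 0.16, Cdkn1b at -0.36 ± 0.19 and Cdkn2c at 1.17 ± 0.56, none called. Cdkn2c was at 7.18 and 2.29 CPM in ethanol and 13.7 and 7.87 in 4OHT, so the groups did not overlap at this low level. The remaining members lay between -0.13 (Cdkn2b) and 0.28 (Ccnd2). Immune markers summed to 18.4 to 44.7 CPM in ethanol and 10.2 to 13.6 in 4OHT. Over these libraries Csf1r ran from 3.44 to 38.1 CPM, Cd68 from 5.11 to 7.76 and Ptprc from 0.0659 to 0.375. The part of these markers in the result was not tested. The difference between the 48-hour and the 2-week experiment was not tested.

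**Figure D2:**
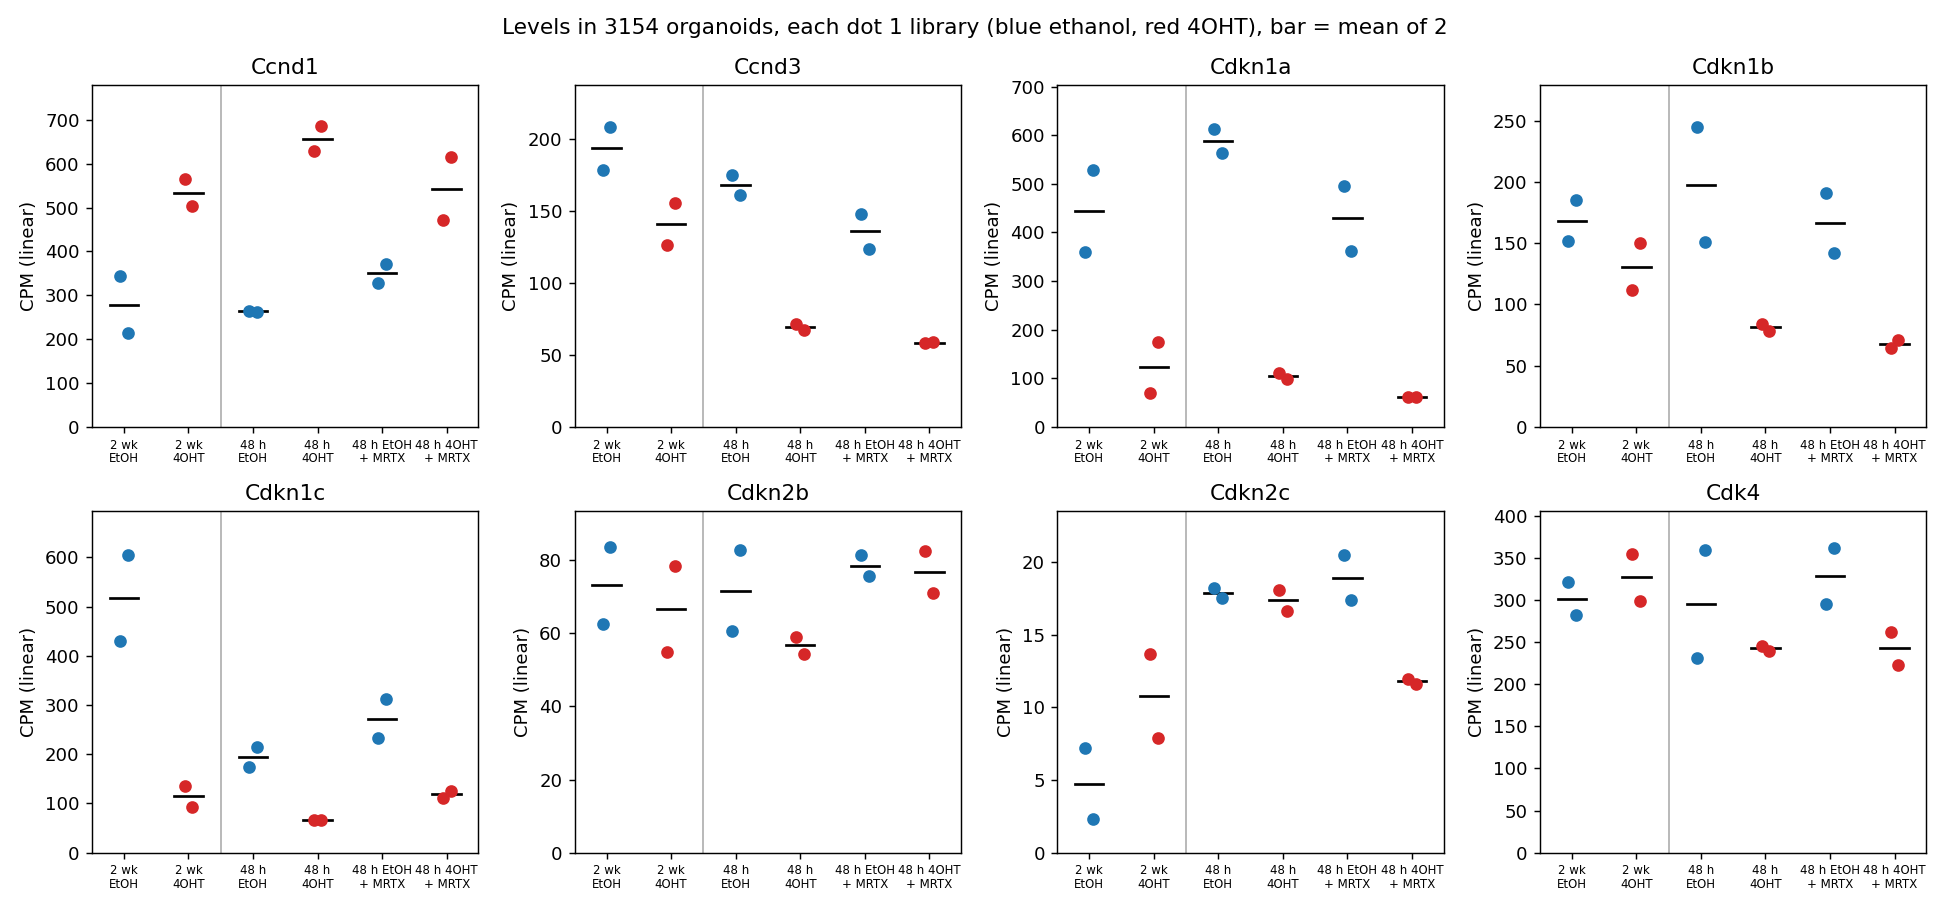
Levels in 3154 organoids in CPM (linear axis from 0), 1 dot per library with a bar at the mean of 2, ethanol in blue and 4OHT in red, the 2-week experiment left of the grey line and the 48-hour experiment right of it. In the 48-hour experiment the 4OHT libraries lie above the ethanol libraries for Ccnd1 and below them for Ccnd3, Cdkn1a, Cdkn1b and Cdkn1c.

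Raising HNF4A in H1651 cells was followed by higher CCND1 and CDKN1A. HNF4A was at 47.0 and 35.9 CPM without and 94.3 and 96.7 with doxycycline. Of 8 members, 2 were called, both higher, where 1.04% of all genes were called higher and 0.386% lower, and the median change of the 8 was -0.04, against 0.00 over all genes. CDKN1A was at 57.9 and 49.7 CPM without and 111 and 94.4 with doxycycline, 1.91-fold higher (0.94 ± 0.11, adjusted p = 0.0137). CCND1 was at 117 and 116 without and 158 and 155 with doxycycline, 1.34-fold higher (0.42 ± 0.066, adjusted p = 0.0336). The CCND1 call was lost without replicate 1 with doxycycline (adjusted p = 0.0579) and without replicate 1 or 2 of the cells without it (0.0977 and 0.152). CCND3 was at 176 and 216 without and 266 and 353 with doxycycline, and was not called (0.66 ± 0.15, adjusted p = 0.101), though it was without replicate 1 with doxycycline (0.00482) or replicate 2 without it (0.0138). The other 5 lay between -0.23 (CDKN2C) and 0.01 (CDK4). Fibroblast markers summed to 248 to 308 CPM without and 172 to 213 with doxycycline, and epithelial markers to 4440.3 to 4450.0 and 5735 to 6215. Immune markers summed to 4.49 to 5.30 and 3.44 to 4.44, and endothelial markers to 2.43 to 3.62 and 4.32 to 4.46. Their part in the result was not tested. Doxycycline and the induced HNF4A cannot be told apart, since a line without the construct was not analysed here. Side by side, Cdkn1a was at -2.48 in the 48-hour deletion of mouse Hnf4a and CDKN1A at 0.94 where human HNF4A was raised, while Ccnd1 was at 1.31 and CCND1 at 0.42. These are separate species and experiments, and no test was made across them.

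MRTX1133 at 3 nM gave no called change among the members in ethanol, and in 4OHT it gave lower Cdkn1a and higher Cdkn1c. In ethanol, 0 of 10 genes were called, where 0.317% of all genes were called higher and 0.0323% lower, and 1820 genes had an unadjusted p under 0.05 by edgeR. In 4OHT, 2 of 10 were called, where 2.1% of all genes were called higher and 2.54% lower. DESeq2 called 0 members in ethanol. The members' median change was 0.02 in ethanol and -0.26 in 4OHT, against 0.00 and 0.00 over all genes. These comparisons share no library with each other, but each shares its vehicle libraries with the deletion in vehicle. Cdkn1a went from 111 and 99.5 CPM to 61.4 and 60.5 in 4OHT, a change of -0.79 ± 0.16 (adjusted p = 0.0382). Cdkn1c went from 67.1 and 66.3 to 112 and 125, a rise of 0.83 ± 0.17 (0.0387). The groups stood apart for both genes. Neither call held when any 1 of the 4 libraries was left out, which took the count of all genes called from 717 to between 0 and 23, with adjusted p of 0.177 to 0.328 for Cdkn1a and 0.199 to 0.313 for Cdkn1c. In ethanol the same genes were at -0.45 ± 0.16 and 0.48 ± 0.17, neither called. Immune markers summed to 5.64 to 5.70 CPM in ethanol and 5.34 to 6.61 in 4OHT with vehicle, and with MRTX1133 to 3.09 to 6.39 in ethanol and 9.77 to 10.1 in 4OHT. Endothelial markers, mostly Vwf, summed to 1.01 to 2.14 and 2.39 to 3.35 with vehicle and 1.85 to 2.45 and 4.49 to 4.51 with MRTX1133. Epithelial markers summed to 5650.3 to 6007 and 5941 to 6057 with vehicle and 5467 to 5469 and 5456 to 5780.1 with MRTX1133. Their part in these results and in the 48-hour deletion was not tested.

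Ccnd1 had opposite signs under MRTX1133, 0.41 ± 0.15 in ethanol and -0.27 ± 0.15 in 4OHT, and neither was called. The interaction, which tests whether the drug effect differed with 4OHT, was -0.68 ± 0.21 for Ccnd1 (unadjusted p = 0.0125, adjusted p = 0.572) and -0.64 ± 0.20 for Cdkn2c (0.0123 and 0.572). No member was called for the interaction, where 0% of all genes were called higher and 0% lower, 1150 genes had an unadjusted p under 0.05 by edgeR and DESeq2 called 36. For Ccnd1 the interval of 2 SE around the interaction ran from -1.11 to -0.26. Hnf4a went from 49.4 and 50.3 CPM to 25.3 and 29.8 with MRTX1133 in 4OHT (-0.86 ± 0.13, adjusted p = 0.0185).

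In H358, trametinib for 48 hours was followed by lower CCND1, CCND3, CDK4 and CDKN2C and higher CDKN1A, CDKN1C and CDKN2B. In 3311 it was followed by lower Ccnd2 and Cdkn1b and higher Ccnd3, and in 1027B by higher Cdkn2b. The 4 cultures had doses of 50 nM (3311), 10 nM (1027B) and 20 nM (H358 and H1651). Of the members tested, 3 of 10 were called in 3311, 1 of 9 in 1027B, 7 of 9 in H358 and 0 of 8 in H1651. Among all genes, 19.4% were called higher and 19.6% lower in 3311, 13.5% and 13.2% in 1027B, 23.5% and 23.2% in H358, and 0% and 0% in H1651. The 3 of 10 in 3311 and 1 of 9 in 1027B are thus no larger a share than among all genes in this fit. In 1027B, where the replicate numbers were taken to pair the samples, the fit with the number as a block called 7 of 9 members, where 44.9% of all genes were called. Values for 1027B are from the fit without the block unless the block is named. In 3311, 5 were called without vehicle replicate 2, with Cdkn2c (0.0215) lower and Cdkn2b (0.0446) higher, and 5 without trametinib replicate 2, with Ccnd1 (0.00377) and Cdkn1a (0.00230) lower. Without vehicle replicate 1, Cdkn1a was lower (0.0387) there and in 1027B (0.0427). Without vehicle replicate 2, Cdkn1a in 3311 took the opposite sign (0.14, adjusted p = 0.723). The median change of the members was -0.55, -0.51, -0.13 and 0.00 in the same order, against 0.01, -0.01, 0.02 and 0.00 over all genes.

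Of the D cyclins, Ccnd1 had a negative change in all 4 cultures but was called in 1. In H358, CCND1 was at 722 and 844 CPM in vehicle and 387 and 627 in trametinib (-0.63 ± 0.20, adjusted p = 0.0353). The treated replicates were uneven, and without replicate 1 of trametinib the change was -0.31 (adjusted p = 0.0669), while without replicate 2 it was -1.01. In 3311 Ccnd1 was at 109 and 126 in vehicle and 62.9 and 92.1 in trametinib (-0.60 ± 0.20, adjusted p = 0.0504), without overlap. In 1027B it was at 464 and 454 in vehicle and 246 and 397 in trametinib (-0.51 ± 0.21, adjusted p = 0.117), and was called without trametinib replicate 2 (-0.90, 0.0133), while without trametinib replicate 1 it was -0.21 (0.386). In H1651 CCND1 was at 168 and 179.7 in vehicle and 105 and 106 in trametinib, without overlap, with a change of -0.72 ± 0.087 and an adjusted p of 0.999. In that last table edgeR called no gene, 597 had an unadjusted p under 0.05 and DESeq2 called 47. CCND1 in H1651 had an unadjusted p of 0.000387 by edgeR and an adjusted p of 3.00e-05 by DESeq2, and without vehicle replicate 1 its adjusted p was 0.0290 by edgeR.

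Ccnd3 rose in 3311 and fell in H358. In 3311 it was at 53.2 and 76.9 CPM in vehicle and 176 and 162 in trametinib, 2.60-fold higher (1.38 ± 0.19, adjusted p = 0.00256). In H358 CCND3 was at 36.7 and 39.2 in vehicle and 15.2 and 20.5 in trametinib, 2.13-fold lower (-1.09 ± 0.16, adjusted p = 0.00100). In both lines every treated library lay outside the vehicle range. In 1027B it was -0.51 ± 0.25 and in H1651 -0.03 ± 0.26, not called. Ccnd2, the leading D cyclin of 3311, fell there from 1071 and 977 to 391 and 545 CPM (-1.13 ± 0.20, adjusted p = 0.00595). After treatment Ccnd2 still had the higher level of the 2 per kilobase, 49.7 ± 11.5 against 19.3 ± 1.06 CPM per kb.

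Of the kinases, 1 was called in 1 culture. CDK4 fell in H358, from 182 and 213 to 135 and 149 CPM (-0.47 ± 0.12, adjusted p = 0.0108), a call lost without vehicle replicate 2 (0.0648). In the other cultures Cdk4 lay between -0.07 (3311) and 0.03 (H1651), not called. Cdk6 was not called in any of the 4, at -0.20 in 3311, 0.48 in 1027B, -0.13 in H358 and -0.34 in H1651.

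Among the CIP/KIP inhibitors, CDKN1A rose in H358, from 80.9 and 90.3 to 151 and 177 CPM (0.94 ± 0.12, adjusted p = 0.000514), without overlap. It was not called in the other 3 cultures, with -0.64 ± 0.41 in 3311, -0.89 ± 0.33 in 1027B and -0.43 ± 0.12 in H1651. In 1027B its levels were 315 and 551 CPM in vehicle and 194 and 273 in trametinib. Cdkn1b fell in 3311, from 571 and 420.3 to 243 and 226 CPM (-1.08 ± 0.18, adjusted p = 0.00510), and was at -0.46, 0.28 and 0.12 in 1027B, H358 and H1651, not called. CDKN1C rose in H358 at a low level, from 2.61 and 1.70 to 5.93 and 4.63 CPM (1.29 ± 0.27, adjusted p = 0.00544).

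The INK4 genes moved in opposite directions in H358. CDKN2B rose from 69.4 and 55.6 to 134 and 173 CPM (1.29 ± 0.16, adjusted p = 0.000398), and CDKN2C fell from 17.5 and 20.3 to 6.81 and 7.41 (-1.41 ± 0.16, adjusted p = 0.000249). Groups stood apart for both genes. Cdkn2b was the called member in 1027B, from 57.9 and 60.5 to 90.4 and 103 CPM (0.71 ± 0.13, adjusted p = 0.0103), and that call was lost without vehicle replicate 1 (0.0518). In 3311 it was at 0.34 ± 0.15 (adjusted p = 0.115). In H1651, CDKN2B had 0 counts in all 4 libraries, which allows up to 0.0660 to 0.0933 CPM (3 counts per library, counting error only). Cdkn2c was at -0.51 in 3311, -0.75 in 1027B and 0.23 in H1651, not called. In H358, fibroblast markers summed to 40.6 to 49.5 CPM in vehicle and 238 to 343 in trametinib, mostly LUM and COL1A1, while DCN and COL1A2 reached 0 in a library, and epithelial markers summed to 4346 to 4424 and 2678 to 3089.8. Endothelial markers there summed to 13.5 to 15.3 and 28.1 to 28.1, and immune markers to 1.40 to 1.66 and 1.84 to 2.41. In 3311, epithelial markers summed to 5607 to 6406 CPM in vehicle and 3855 to 4730.4 in trametinib, fibroblast markers to 21.5 to 26.2 and 17.3 to 17.5, and endothelial markers to 3.23 to 4.14 and 2.36 to 2.83. In 3311, immune markers summed to 9.55 to 15.9 and 21.8 to 28.6. Over these 3311 libraries Csf1r ran from 4.68 to 27.7 CPM and Cd68 from 0.951 to 4.87, while Ptprc was at 0 in each. In 1027B, endothelial markers, mostly Vwf, summed to 2.86 to 3.95 and 8.10 to 10.0, and immune markers to 8.57 to 8.93 and 7.69 to 8.5. The part of these in the results was not tested.

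**Figure D3:**
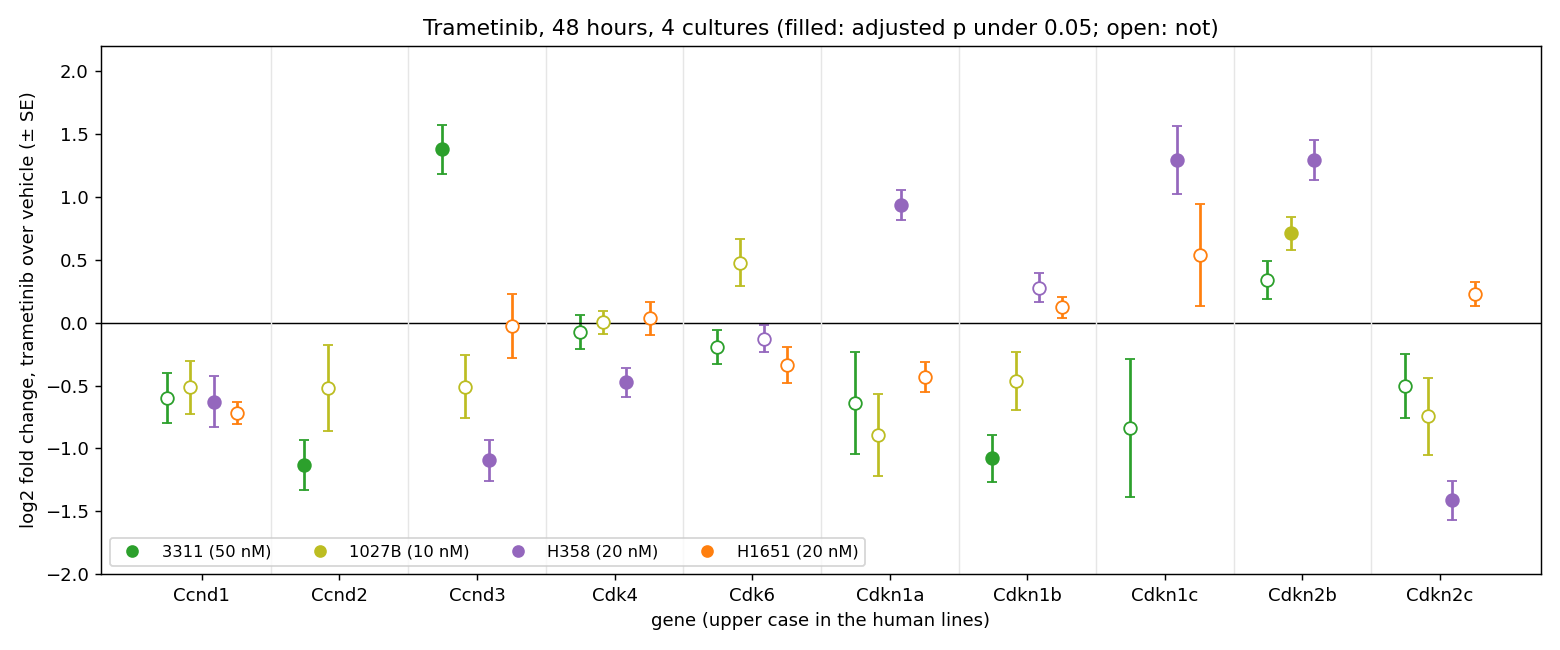
Log2 change with trametinib over vehicle at 48 hours (± SE) for each gene in 3311 (50 nM), 1027B (10 nM), H358 (20 nM) and H1651 (20 nM), filled where the adjusted p was under 0.05. Ccnd3 points up in 3311 (1.38) and down in H358 (-1.09), and CDKN1A points up in H358 only among the filled symbols.

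H358 and H1651 had the same dose and time, so the difference between their responses was tested in 1 fit. Of 8 members tested, 2 differed, where 9.86% of all genes were called higher and 9.43% lower in H1651. CDKN1A differed by -1.39 ± 0.17 (log2, H1651 minus H358, adjusted p = 0.00146), with levels of 45.1 and 43.4 CPM in vehicle and 35.8 and 29.9 in trametinib in H1651. CDKN2C differed by 1.61 ± 0.17 (adjusted p = 0.000783), with 40.4 and 37.2 CPM in vehicle and 44.3 and 46.7 in trametinib in H1651. CCND1 had values on the same side in both lines, and its difference was -0.11 ± 0.26 with a 2 SE interval from -0.64 to 0.41, which leaves room for a difference in either direction. CCND3 missed the threshold at 1.04 ± 0.32 (adjusted p = 0.0553) and passed it without H1651 vehicle replicate 2 (0.0290) or trametinib replicate 1 (0.0121). The 2 lines stand in separate tables, and each is 1 line.

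In 1027B organoids, MRTX1133 at 20 nM gave no called member by the fit without a replicate term, where 3.01% of all genes were called higher and 3.26% lower, 3376 genes had an unadjusted p under 0.05 and DESeq2 called 1636 genes but 0 members. Cdkn1a was at 194 and 306 CPM, against 315 and 551 in vehicle (-0.79 ± 0.32, adjusted p = 0.205), and Cdkn2b at 67.8 and 82.8, against 57.9 and 60.5 (0.35 ± 0.13, 0.175). Ccnd1 was at 407 and 453 against 464 and 454 (-0.10 ± 0.21). The trametinib and MRTX1133 comparisons share their vehicle libraries. Set against trametinib directly, at 20 nM against 10 nM, MRTX1133 gave no called member either, where 0% of all genes were called higher and 0% lower, 2358 genes had an unadjusted p under 0.05 and DESeq2 called 712 genes and 0 members. The widest gaps were Ccnd2 at 0.93 ± 0.34 and Cdkn2c at 0.72 ± 0.31 (2 SE interval from 0.10 to 1.33).

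Replicates of the same number deviated together in all 3 pairs of 1027B groups, and with the replicate number as a block more members passed. With trametinib, 7 of 9 were then called: Ccnd1 (-0.55, adjusted p = 0.0161), Ccnd3 (0.00119), Cdkn1a (0.000105), Cdkn1b (0.000876) and Cdkn2c (0.00838) lower, and Cdk6 (0.000869) and Cdkn2b (0.000264) higher. The blocked fit called 6540 genes in all. With MRTX1133, 4 of 9 were called: Ccnd3 (0.0103) and Cdkn1a (0.000530) lower, Cdk6 (0.00644) and Cdkn2b (0.0206) higher, with 3515 genes (24.1%) in all. Between the drugs, Cdkn1b (0.0254) and Cdkn2c (0.0352) were then higher and Cdkn2b (0.0224) lower with MRTX1133, with 2050 genes (14.1%) in all. In these organoids Hnf4a was at 446 and 471 CPM in vehicle, 254 and 200.4 in trametinib and 297 and 242 in MRTX1133. Immune markers summed to 8.57 to 8.93 CPM in vehicle and 6.78 to 6.91 in MRTX1133, and endothelial markers to 2.86 to 3.95 and 4.57 to 7.13, and their part in the result was not tested.

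**Figure D4:**
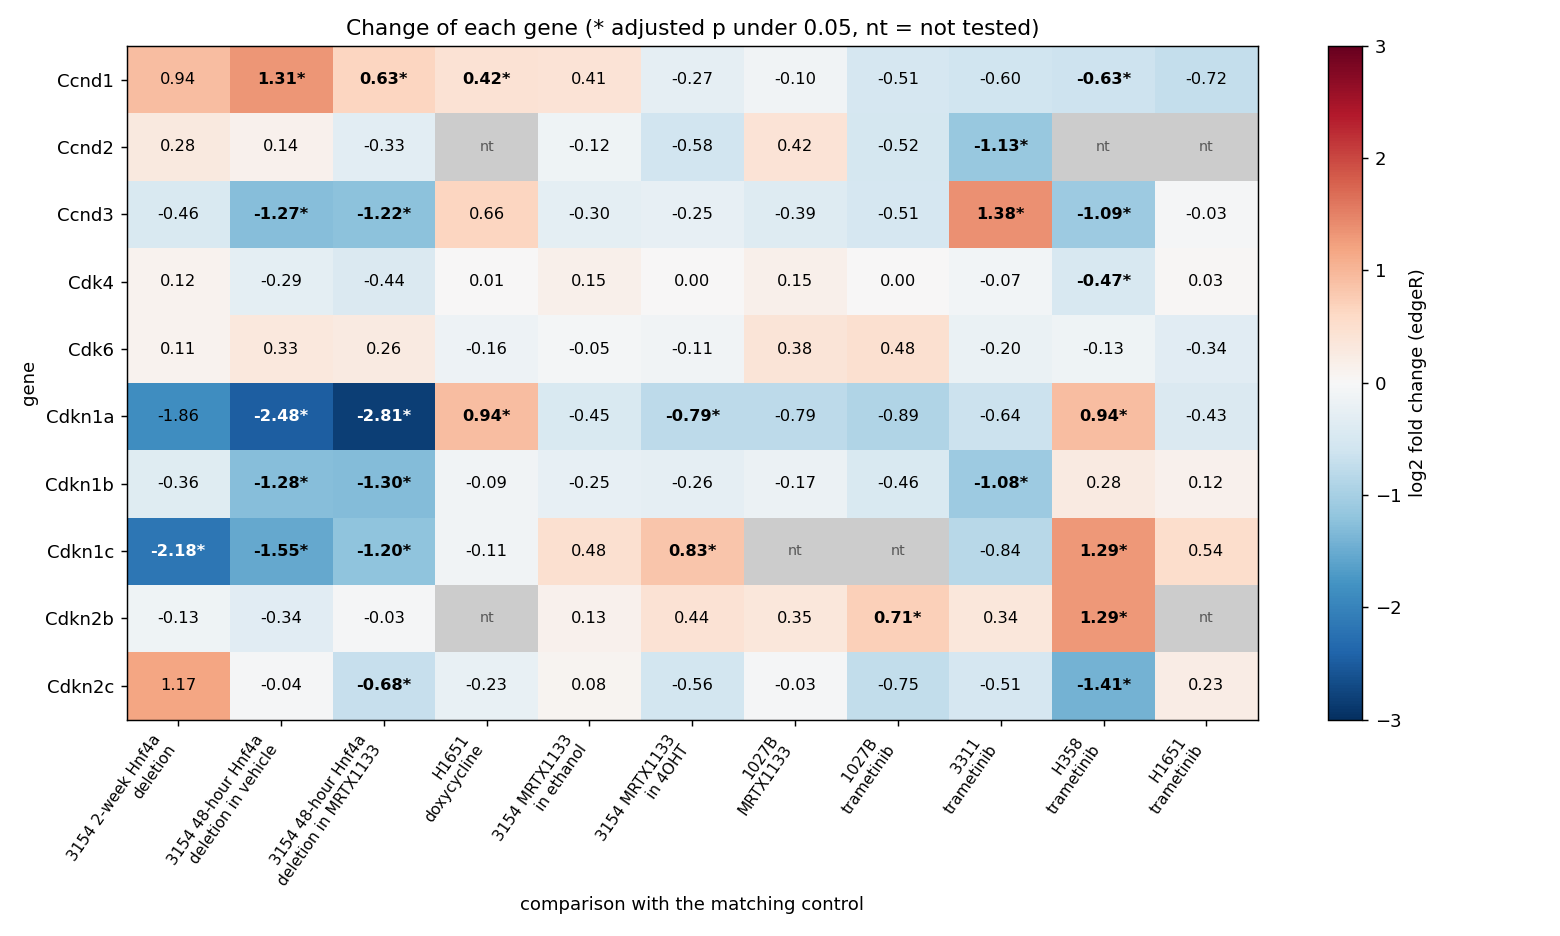
Log2 change of each gene (rows) in each comparison with its matching control (columns), with a star where the adjusted p was under 0.05 and nt where the gene was not tested. The starred cells number 5 in the 48-hour deletion in vehicle, 6 in the deletion in MRTX1133, 7 in H358 with trametinib and 0 in H1651 with trametinib.

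Genes that E2F is known to drive fell with trametinib in 3 of the 4 cultures. Of 22 E2F target and proliferation genes (such as Mki67 and the Mcm helicase genes), 22 were called lower in H358, 18 in 3311, 16 in 1027B and 0 in H1651, and none higher. Among all genes, 23.2%, 19.6%, 13.2% and 0% were called lower in the same order, so the fit in H1651 called no gene of any kind. The medians of the list were -1.91, -1.74, -1.04 and -0.01, against all-gene medians given above. Examples are AURKB, a mitotic kinase, in H358 (-2.94 ± 0.24, adjusted p = 6.13e-05), and Bub1, a spindle checkpoint kinase, in 3311 (-4.33 ± 0.48, 0.00116) and 1027B (-1.79 ± 0.23, 0.00338). In the test of H1651 against H358 all 22 were called higher in H1651, where 9.86% of all genes were called higher and 9.43% lower. The change of AURKB was 3.02 higher in H1651 than in H358 on the log2 scale. In 3154, MRTX1133 lowered 12 of 22 in 4OHT, where 2.54% of all genes were called lower, and 0 in ethanol, where 0.0323% were, with medians of -0.76 and -0.09, and in 1027B it gave 0 of 22 called beside 3.26% of all genes, with a median of -0.20. The count in 4OHT rests on all 4 libraries, as given above for all genes. The list's difference between the 2, the interaction, gave 0 of 22 called, with a median of -0.65 against -0.02 over all genes. After Hnf4a deletion 2 of 22 were lower in vehicle, Plk1 (-1.0) and Aurkb (-0.92), 12 were lower in MRTX1133, beside 15.7% and 14.5% of all genes, and at 2 weeks, beside 4.03% of all genes, 1 was higher, the replication licensing gene Cdc6 (1.31 ± 0.26, adjusted p = 0.0375), with a list median of 0.63 against 0.02 over all genes. With doxycycline none of 22 was called, beside 1.04% of all genes called higher and 0.386% lower.

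The list of ERK output genes other than Ccnd1 held 10 genes known to respond to the RAF, MEK and ERK cascade. In H358 and in 3311, 9 of 10 fell, in 1027B 8 with trametinib and 4 with MRTX1133, in 3154 4 with MRTX1133 in 4OHT and 0 in ethanol, and no gene was called in H1651. Among all genes, 23.2% were called lower in H358, 19.6% in 3311, 13.2% and 3.26% in 1027B with trametinib and MRTX1133, 2.54% in 3154 in 4OHT and 0.0323% in ethanol. For the interaction in 3154, 0 of 10 were called, with a median of -0.46, and the count in 4OHT comes from the fit in which leaving out 1 library took all calls from 717 to between 0 and 23. In H1651 the fit called 0% of all genes, and 597 of 18277 genes had an unadjusted p under 0.05 by edgeR in either direction. Of the 10, 9 had a negative change with such a p, with DUSP6 at -3.0 ± 0.19 (adjusted p = 0.149). The other called member of the list was the receptor gene Epha4, which rose in H358 (1.48), in 3311 (0.86) and in 1027B with trametinib (0.57) and MRTX1133 (0.72). The list's median in H1651 was -1.52, against -3.29 in H358, -1.74 in 3311, -1.55 in 1027B with trametinib and -0.73 with MRTX1133. DUSP6, a phosphatase that feeds back on ERK, was -7.59 ± 0.23 in H358 (adjusted p = 1.40e-06), and the ETS factor Etv4 was -6.31 ± 0.23 in 3311 (0.000220) and -3.56 ± 0.23 in 1027B (0.000563). Beside these, the changes of Ccnd1 ran from -0.72 to -0.51 in the 4 trametinib comparisons. With doxycycline, where CCND1 rose, 1 of 10 was higher, DUSP6 (0.54, adjusted p = 0.0449), beside 1.04% of all genes, and at 2 weeks 1 was higher, Etv4 (0.66, 0.0374), beside 4.03%. After Hnf4a deletion in vehicle, where Ccnd1 rose, 1 of 10 ERK output genes was higher and 2 were lower, where 15.3% and 15.7% of all genes were. The higher one was Epha4 (1.24), which in 3154 was not called under MRTX1133 (0.22 in ethanol and -0.38 in 4OHT). In the deletion in MRTX1133, where Ccnd1 also rose, 1 of 10 was higher and 3 were lower, beside 13.2% and 14.5% of all genes.

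Of 13 pocket protein and E2F genes, 1 was called at 2 weeks, beside 4.03% of all genes called higher and 5.78% lower. It was Rb1, the retinoblastoma gene, at -1.37 ± 0.16 (adjusted p = 0.0124). Rb1 was also lower in the 48-hour deletion in vehicle, at -1.52 ± 0.29 (0.00667), with E2f4 lower (-0.61) and the repressor E2f7 higher (0.83) among 3 called, beside 15.3% of all genes called higher and 15.7% lower. In MRTX1133 Rb1 was at -0.86 ± 0.29 (0.0568), not called. The deletion in MRTX1133 lowered 6 of 13, beside 14.5% of all genes called lower. With trametinib, 9 of 13 were lower and 1 higher in H358, 4 lower in 3311, 4 lower and 1 higher in 1027B and 0 called in H1651. The 4 of 13 in 3311 and 4 of 13 in 1027B stand beside 19.6% and 13.2% of all genes called lower, and the 9 of 13 in H358 beside 23.2%. E2F7 and E2F8 led in H358 (-2.37 and -1.54). Among 16 other G1/S kinases, cyclins and inhibitors, the INK4 gene Cdkn2d (p19) was lower in the deletion in vehicle (-1.28 ± 0.18, adjusted p = 0.00208) and in MRTX1133 (-1.11), and in 3311 and 1027B with trametinib (-0.97 and -1.21). In all, 3 of 16 were lower in the deletion in vehicle and 4 in MRTX1133, 6 lower and 1 higher in 3311, 4 lower and 2 higher in 1027B, and 9 lower in H358, beside the same shares of all genes, 15.7% for the deletion in vehicle and 14.5% in MRTX1133. No gene of either list was called with doxycycline, beside 1.04% of all genes called higher and 0.386% lower.

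The p53 target list held 18 genes besides Cdkn1a, of which 16 or 17 were tested in each table. In the 48-hour deletion 2 were higher and 6 lower in vehicle, and 1 higher and 6 lower in MRTX1133, of 16 tested. Among all genes, 15.3% were higher and 15.7% lower in vehicle, and 13.2% and 14.5% in MRTX1133. Gdf15, a stress-induced cytokine, was lower in vehicle (-3.54 ± 0.21, adjusted p = 0.000141) and in MRTX1133 (-3.61), and Plk2, a kinase, higher (1.89 and 1.37). At 2 weeks Gdf15 (-2.47) and Trp53inp1 (-0.72) were lower and Plk2 (1.83) higher, 3 of 17, where 4.03% of all genes were higher and 5.78% lower. The list's median was -0.04 in the deletion in vehicle, against 0.01 over all genes, with members called in both directions. A part of p53 in the change of Cdkn1a (-2.48) was not tested. In H358 with trametinib, where CDKN1A rose, 5 of 17 were higher and 8 lower, where 23.5% and 23.2% of all genes were, with TP53INP1 at 4.56 ± 0.12 and GDF15 at -2.87. With doxycycline, where CDKN1A rose, 0 of 17 were called, beside 1.04% of all genes called higher and 0.386% lower, and the list's median was 0.08. The p53frt allele is carried by every mouse culture, control groups included, and whether p53 was functional in them was not tested.

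Across the 22 mouse libraries, log2 CPM of Cdkn1a and Ccnd3 ran against that of Ccnd1, with Pearson r of -0.68 and -0.69, and Cdkn2b was at -0.64. Cdkn2c (0.45), Ccnd2 (0.21), Cdk6 (0.10), Cdk4 (-0.26) and Cdkn1b (-0.41) were the other members found in all 4 mouse tables. In the 12 human libraries the members most unlike CCND1 were CDKN1B (-0.74) and CDKN1C (-0.72), and CCND3 was at 0.73. The genes most like Ccnd1 in mouse, of 12597 genes, were Nfatc1 (0.94), Plau (0.93), Aldh1a3 (0.92), Fkbp5 (0.92) and Tcf19 (0.92). In human, of 15001 genes, they were NINJ2-AS1 (0.96), ZDHHC18 (0.95), S100P (0.94), HK2-DT (0.94) and B3GALT5 (0.93). These are descriptions. The libraries come from 3 mouse cultures and 2 human lines, and each table was scaled separately. Libraries of 1 experiment share the untreated libraries subtracted from them, so the points are not independent.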

How the data were processed

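The authors deposited raw read counts per gene in 7 tables, from 34 libraries of strand-specific, paired-end poly(A) RNA-seq. Per the submitters' processing notes, cutadapt 3.5, STAR 2.7.6a and featureCounts 1.6.3 were named, with builds mm10, mm39 and hg38; which mouse build served which table, the annotation and the strand setting are not given in the sources used here. The columns of the 3311 table carry no line name and were assigned from the table's name.

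The 10 genes, the pathway lists and the tests were chosen with earlier results of these data known. Each table was fitted whole in R 4.3.3 with edgeR 4.0.16 on the counts as deposited (filterByExpr, TMM, quasi-likelihood F-test, group means only), and adjusted p is the Benjamini-Hochberg value over all genes of the table. Standard errors are the size of the log2 change divided by the square root of F. The H358 and H1651 comparison was fitted on both tables joined by gene ID. No exact permutation test of 2 against 2 libraries can reach 0.05. Named genes are the members, Hnf4a, and up to 3 called genes of each list with the largest change. The alternatives were upper-quartile and RLE factors, DESeq2 1.42.0, 2 other filters, only the groups compared, a replicate block, and leaving out each library. The script was tested on simulated data. In 1027B, same-numbered replicates deviated together in each pair of groups (r = 0.37, 0.24 and 0.41), so the numbers were taken to pair the samples there; in the 48-hour 3154 table they did not. Exon lengths are from GENCODE M21 (GRCm38), which held 96.79% to 99.88% of the listed mouse gene IDs; promoter sequences are RefSeq's. The p53 element search was added after the sequence was seen. Not every allele of the mouse cultures is reported here.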

Additional observations from a re-analysis of the deposited data

Results flagged for a closer look

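The trametinib response of CDKN1A and CDKN2C differed between H1651 and H358 at the same dose and time, by the test of the difference itself. CDKN1A differed by -1.39 on the log2 scale (adjusted p = 0.00146), with -0.43 in H1651 and 0.94 in H358. CDKN2C differed by 1.61 (adjusted p = 0.000783), with 0.23 in H1651 and -1.41 in H358.

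In 11 further cases every treated library of 1 culture lay on one side of its vehicle libraries and every treated library of another culture on the opposite side. These differences were not tested, the cultures had different doses (50 nM in 3311, 10 nM in 1027B and 20 nM in H358 and H1651 for trametinib), and not all of the effects were called. The share of all genes with such opposite pairs was not counted, so the number of cases is not a result about these genes. For trametinib, Ccnd3 was at 1.38 in 3311, against -0.51 in 1027B (a gap of 1.89) and -1.09 in H358 (a gap of 2.47). Cdk6 was at 0.48 in 1027B, against -0.20 in 3311 (3311 minus 1027B, -0.67) and -0.34 in H1651 (1027B minus H1651, 0.82). Cdkn1a was at -0.89 in 1027B and 0.94 in H358, a gap of -1.83. Cdkn1b was at -1.08 in 3311, against 0.28 in H358 (-1.36) and 0.12 in H1651 (-1.20). Cdkn1c was at -0.84 in 3311 and 1.29 in H358 (-2.13), where 3311 had 6 to 16 counts per library. Cdkn2c was at 0.23 in H1651, against -0.51 in 3311 (3311 minus H1651, -0.73) and -0.75 in 1027B (1027B minus H1651, -0.97). For MRTX1133, Ccnd1 was at -0.10 in 1027B at 20 nM and 0.41 in 3154 in ethanol at 3 nM, a gap of -0.50, with neither called.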

How the results depend on the processing

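The 29 member changes called in the 14 comparisons kept their direction and their call under DESeq2, RLE and upper-quartile factors, both other count filters, the replicate block and, where it could be run, only the groups compared. With 1 library left out, 103 of their values kept the call and 21 lost it; such a fit has a lone library that is assumed to vary like the other groups. Of the changes not called, 8 were called with DESeq2 and 32 with the replicate block. The number of members called moved by 1.5 times or more with DESeq2 to 3 in the 2-week deletion (main 1), 2 in 1027B trametinib (main 1) and 1 in H1651 trametinib (main 0), with no count filter to 2 in the 2-week deletion (main 1), and with only the groups compared to 4 in MRTX1133 in 4OHT (main 2). With the replicate block it moved to 6 in the 2-week deletion (main 1), 5 in doxycycline (main 2), 5 in 3311 trametinib (main 3), 7 in 1027B trametinib (main 1), 4 in 1027B MRTX1133 (main 0), 3 in 1027B MRTX1133 against trametinib (main 0), 5 in H1651 trametinib (main 0) and 5 in H1651 against H358 (main 2). In no table do the labels say what a number stands for. Outside 1027B, same-numbered deviations correlated at 0.43 in the 2-week table, 0.32 in the doxycycline table, 0.13 in 3311, 0.32 in H358 and 0.62 in H1651. The calls gained there under the block are values of that fit only. Leaving out 1 library moved it over a range of 1 to 4 in the 2-week deletion, 1 to 2 in doxycycline, 3 to 5 in 3311 trametinib, 1 to 2 in 1027B trametinib, 0 to 1 in H1651 trametinib, 0 in each case in MRTX1133 in 4OHT and 4 to 8 in the deletion in vehicle. The count of all genes called moved with DESeq2 to 2311 in the 2-week deletion, 451 in doxycycline, 1636 in 1027B MRTX1133, 712 in 1027B MRTX1133 against trametinib, 47 in H1651 trametinib, 330 in MRTX1133 in ethanol, 1342 in MRTX1133 in 4OHT and 36 in the interaction, with the block to 4563 in the 2-week deletion, 3048 in doxycycline, 6540 in 1027B trametinib, 3515 in 1027B MRTX1133, 2050 in 1027B MRTX1133 against trametinib, 1881 in H1651 trametinib and 8472 in H1651 against H358, with only the groups compared to 1 in 1027B MRTX1133 against trametinib, 0 in MRTX1133 in ethanol, 3932 in MRTX1133 in 4OHT and 3154 in the deletion in vehicle, and with no filter to 2 in H1651 trametinib, from 1421 in the 2-week deletion, 247 in doxycycline, 5938 in 3311 trametinib, 3880 in 1027B trametinib, 913 in 1027B MRTX1133, 0 in 1027B MRTX1133 against trametinib, 8871 in H358 trametinib, 0 in H1651 trametinib, 54 in MRTX1133 in ethanol, 717 in MRTX1133 in 4OHT, 4795 in the deletion in vehicle, 4279 in the deletion in MRTX1133, 0 in the interaction and 4087 in H1651 against H358. Leaving out 1 library gave 395 to 2790 in the 2-week deletion, 232 to 412 in doxycycline, 3772 to 6298 in 3311 trametinib, 1336 to 2754 in 1027B trametinib, 138 to 349 in 1027B MRTX1133, 0 to 2 in 1027B MRTX1133 against trametinib, 0 to 193 in H1651 trametinib, 0 to 309 in MRTX1133 in ethanol, 0 to 23 in MRTX1133 in 4OHT, 1668 to 5964 in the deletion in vehicle, 1745 to 2805 in the deletion in MRTX1133 and 2177 to 3667 in H1651 against H358. The cause was not tested. Changes that took the opposite sign were all uncalled and near 0: with upper-quartile factors, CDK4 in doxycycline (-0.000665), Cdkn2c in 1027B MRTX1133 (0.00582), Cdkn2c in the deletion in vehicle (0.0375) and Cdkn2b in the deletion in MRTX1133 (0.0539), and with DESeq2, Cdk4 in MRTX1133 in 4OHT (-0.000816) and Cdkn1b in the interaction (0.00918), and with RLE factors, Cdk4 in MRTX1133 in 4OHT (-0.000822) and Cdkn1b in the interaction (0.00916), and with no count filter, Cdk4 in MRTX1133 in 4OHT (-0.00497), and with at least 10 counts in every library, Cdkn2b in the deletion in MRTX1133 (0.000402). With 1 library left out, these uncalled changes (log2, lowest to highest) also changed sign: In the 2-week deletion, Cdk4 -0.0168 to 0.235, Cdkn2b -0.415 to 0.0988, Ccnd2 -0.909 to 0.929 and Cdk6 -0.179 to 0.445. In doxycycline, CDK4 -0.0449 to 0.0625 and CDKN1C -0.290 to 0.0896. In 3311 trametinib, Cdkn1a -1.15 to 0.143. In 1027B trametinib, Cdk4 -0.0186 to 0.0264. In 1027B MRTX1133, Cdkn1b -0.407 to 0.130 and Cdkn2c -0.429 to 0.299. In 1027B MRTX1133 against trametinib, Cdkn1a -0.275 to 0.393, Ccnd3 -0.163 to 0.473 and Cdk6 -0.264 to 0.0877. In H1651 trametinib, CDK4 -0.0860 to 0.157 and CCND3 -0.385 to 0.263. In MRTX1133 in ethanol, Cdkn1b -0.556 to 0.146, Cdk4 -0.131 to 0.503, Cdk6 -0.299 to 0.246, Cdkn2b -0.0745 to 0.370, Cdkn2c -0.0674 to 0.196 and Ccnd2 -0.272 to 0.000667. In MRTX1133 in 4OHT, Cdk4 -0.118 to 0.115 and Cdk6 -0.319 to 0.0692. In the deletion in vehicle, Ccnd2 -0.0993 to 0.325, Cdkn2c -0.106 to 0.0132 and Cdk4 -0.576 to 0.0591. In the deletion in MRTX1133, Ccnd2 -0.949 to 0.115 and Cdkn2b -0.147 to 0.0689. In the interaction, Cdkn1b -0.410 to 0.292, Cdk6 -0.361 to 0.185, Cdk4 -0.502 to 0.132 and Ccnd3 -0.0685 to 0.209. In H1651 against H358, CCND1 -0.394 to 0.244.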
